A study of Mus musculus with 30 samples.

Results

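Bmp6, Bmp2, Bmp4 and Gdf2 encode 4 secreted ligands of the bone morphogenetic protein (BMP) family that are made in the liver. Their transcripts were followed in liver RNA of 30 mice on 30 single-colour oligonucleotide arrays, with 1 mouse per array. They are 4 of the 28785 gene names measured. All array probes whose annotated gene name was Bmp6, Bmp2, Bmp4 or Gdf2 were taken, which gave 5 of 41174 probes: 2 for Bmp6 and 1 for each of the others. Every one of the 5 stood well above background on all 30 arrays, none was saturated on any array, and all 5 passed the filter on dim probes, as did 29986 probes in all.

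The mice came from 2 inbred strains, DBA/2 (D2) and C57BL/6 (B6). The mouse codes in all sample titles carry the letters WT, and the labels name no transgene or targeted allele. The 6 groups of 5 mice were D2 and B6 mice on an iron-deficient diet (less than 3 mg of iron per kg), an iron-balanced diet (200 mg per kg) or an iron-enriched diet (8.3 g per kg). No source used here gives sex, age or length of feeding. All 11 hepatocyte markers on the array, among them Alb and Ttr, passed the filter, which matches the liver label. Each array read whole liver, so that fewer cells of a type and less RNA per cell cannot be told apart.

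In the liver, BMP6 and BMP2 are secreted mainly by sinusoidal endothelial cells, the cells that line the liver capillaries. They bind BMP receptors and the co-receptor hemojuvelin on hepatocytes, where SMAD proteins then switch on Hamp, the gene of the iron hormone hepcidin, together with feedback genes such as Id1, Smad6 and Smad7. BMP4 is a close relative of BMP2 best known from embryonic patterning, and GDF2, also called BMP9, is a blood-borne ligand made in the liver that acts on endothelial cells through the receptor ALK1 and endoglin. Bmp6, Id1, Smad7 and Atoh8 stand in the title of the series, so the study chose them on these samples and their direction here is not independent evidence.

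The sequences just before the gene starts are shown because 3 of the 4 ligands have such a promoter entry in the RefSeq table used (assembly GRCm38.p6). Each run holds the 250 bases before the start, 5′ to 3′ on the gene's strand, and capitals mark the motif matches described next.
Bmp6, chr13:38345466-38345715, plus strand: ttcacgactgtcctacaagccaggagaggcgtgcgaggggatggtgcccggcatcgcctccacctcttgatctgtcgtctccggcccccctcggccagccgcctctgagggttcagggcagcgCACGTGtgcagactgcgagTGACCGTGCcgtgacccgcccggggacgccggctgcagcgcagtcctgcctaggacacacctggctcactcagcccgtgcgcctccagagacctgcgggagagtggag
Bmp4, chr14:46390670-46390919, minus strand: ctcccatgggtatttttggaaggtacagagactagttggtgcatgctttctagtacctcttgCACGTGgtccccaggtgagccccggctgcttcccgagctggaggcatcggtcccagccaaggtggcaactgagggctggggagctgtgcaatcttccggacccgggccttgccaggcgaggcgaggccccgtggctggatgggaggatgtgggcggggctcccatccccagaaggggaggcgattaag
Gdf2, chr14:33940789-33941038, plus strand: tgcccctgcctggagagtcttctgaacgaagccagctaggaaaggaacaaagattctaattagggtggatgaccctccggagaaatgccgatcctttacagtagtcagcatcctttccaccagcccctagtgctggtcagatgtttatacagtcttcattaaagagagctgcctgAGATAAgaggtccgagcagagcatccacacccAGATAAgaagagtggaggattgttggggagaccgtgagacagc

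The Bmp6 window was 68.8% G or C with 22 CpG dinucleotides and the Bmp4 window 63.2% with 11, while the Gdf2 window was 50.4% with 5, near the median of 52.4% over 32851 mouse promoter windows of that length. Both strands were searched for 4 motifs: the antioxidant response element TGACNNNGC, the E-box CACGTG, the GATA box AGATAA and the GC-rich SMAD box GGCGCC. The Bmp6 window held TGACCGTGC at bases 108 to 100 before the start and an E-box at 127 to 122, and no matches overlapped. The Bmp4 window held an E-box at 188 to 183, and the Gdf2 window held 2 GATA boxes, at 75 to 70 and at 43 to 38. Of all windows, 10.2% held the antioxidant response element, 6.02% the E-box, 9.99% the GATA box and 9.59% the GC-rich SMAD box, which had no match in the 3 windows shown. A match describes the letters only.

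Bmp6 followed the iron content of the diet in both strains, and its level separated the 3 diets in every mouse of a strain. On the brighter of its 2 probes (A_52_P413646), the quantile-normalized signal of D2 livers was 242, 297, 241, 270 and 289 on the deficient diet, 575, 482, 453, 552 and 497 on the balanced diet and 868, 998, 968, 863 and 753 on the enriched diet. In B6 livers it was 275, 302, 299, 331 and 317 on the deficient diet, 654, 761, 683, 705 and 687 on the balanced diet and 2138, 2083, 2197, 1911 and 2350 on the enriched diet. No 2 diets overlapped within a strain, and the enriched B6 mice stood above all other mice. Over all probes, enriched and balanced mice did not overlap at 1.33% in D2 and 5.58% in B6 livers, deficient and balanced mice at 6.10% in D2 and 2.54% in B6 livers, and enriched and deficient mice at 5.92% in D2 and 5.63% in B6 livers.

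The group means stood in the order D2 deficient (268 ± 26, SD, n = 5), B6 deficient (305 ± 21), D2 balanced (512 ± 51), B6 balanced (698 ± 40), D2 enriched (890 ± 97) and B6 enriched (2136 ± 161). Of the neighbours in this order, the deficient D2 and B6 mice overlapped, and so did the highest balanced B6 mouse (761) and the lowest enriched D2 mouse (753).

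**Figure D1:**
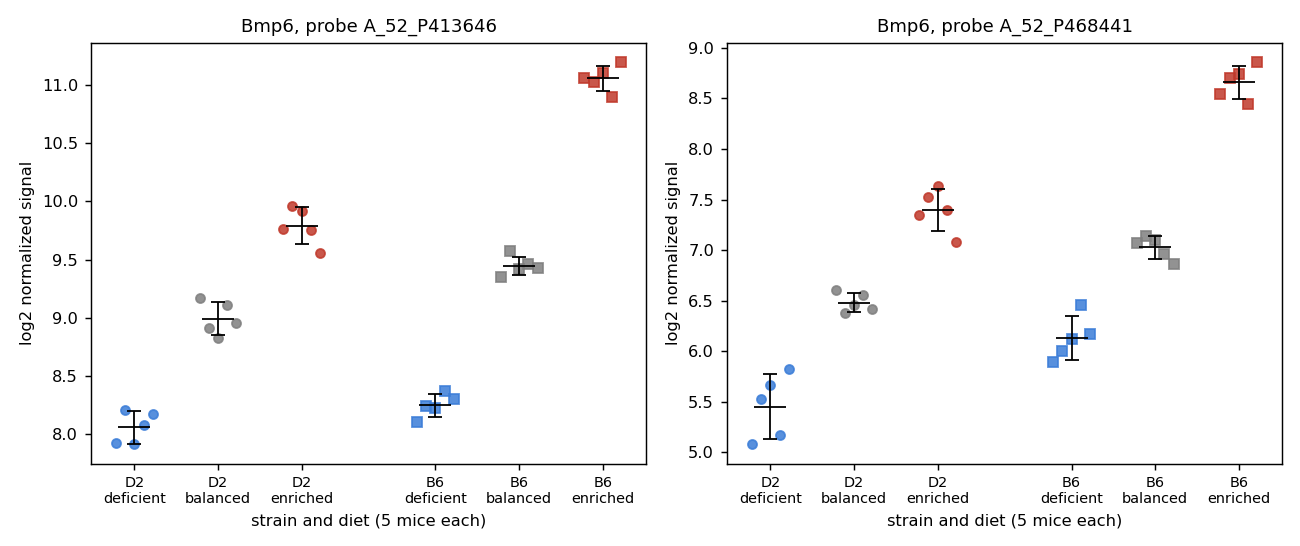
Log2 quantile-normalized signal of the 2 Bmp6 probes (vertical axes) in every mouse, by strain and diet; circles are D2 mice, squares B6 mice, and black bars the mean and SD of 5 mice. On both probes the 3 diets do not overlap within a strain, and enriched B6 mice (1911 to 2350 on the linear scale of the left probe) stand above enriched D2 mice (753 to 998).

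Bmp6 averaged 2.30 times as much signal in enriched as in balanced livers over both strains (log2 1.20, SE 0.06, limma adjusted p = 3.88e-13), the smallest p of the 29986 tested probes. The second probe (A_52_P468441), read from a separate spot, rose by log2 1.27 (SE 0.09, adjusted p = 7.16e-10). Of the 5 ligand probes, these 2 passed the threshold of 0.05 in this comparison, where 2.02% of all probes did. Within strains, the brighter probe rose by log2 0.80 in D2 livers (adjusted p = 1.62e-05) and by 1.61 in B6 livers (adjusted p = 1.52e-12), in 5 of 5 enriched mice above the balanced mean each time. Of all probes, 0.0867% passed that comparison in D2 livers and 5.34% in B6 livers. Fitted on the compared groups alone, the D2 value was 0.80 with an adjusted p of 0.105. Within single scan days, the averaged difference was 1.31 on day 2 and 1.24 on day 3.

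On the deficient against the balanced diet, Bmp6 was 2.09-fold lower averaged over strains (log2 -1.07, SE 0.06, adjusted p = 2.64e-12). The second probe fell by 0.96 on the log2 scale (SE 0.09, adjusted p = 1.70e-07). Here 3 of the 5 ligand probes passed, both of Bmp6 and that of Gdf2, against 7.34% of all probes. On the brighter probe, Bmp6 fell by 0.93 in D2 livers (adjusted p = 1.36e-07) and by 1.20 in B6 livers (adjusted p = 1.55e-09), comparisons that 4.16% and 1.44% of probes passed. Within scan day 2, with 1 balanced B6 mouse, the averaged difference was -0.95, short of the threshold. Within day 3, with 1 balanced D2 mouse, it was -1.18. From the deficient to the enriched diet the whole span was 3.32-fold in D2 livers and 7.0-fold in B6 livers (log2 1.73 and 2.81), where 2.95% of probes passed in D2 and 5.16% in B6 livers.

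The size of the response to dietary enrichment differed between the strains. Enriched minus balanced was smaller in D2 than in B6 livers by log2 0.81 (difference -0.81, SE 0.12, adjusted p = 0.000621), where 0.887% of probes passed. Enriched minus deficient differed by -1.08 (SE 0.12, adjusted p = 1.03e-05), where 0.387% passed. Within single scan days this was -0.93 on day 2, with 1 enriched mouse per strain, and -0.95 on day 3 (adjusted p = 0.350), both short of the threshold. The deficiency response did not differ past the threshold (D2 minus B6 difference 0.26, 95% interval 0.02 to 0.51, adjusted p = 0.717; 0.0200% of probes passed).

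The second probe gave -0.71 for the enrichment difference (SE 0.18, adjusted p = 0.0513) and -0.59 for enriched minus deficient (SE 0.18, adjusted p = 0.154), so the strain difference in response passed on 1 of the 2 Bmp6 probes. The log2 gap between the brighter and the second probe was 2.61 ± 0.29 in deficient D2 livers (SD, n = 5) and 2.12 ± 0.13 in deficient B6 livers, and it lay between 2.39 and 2.51 in the other groups. On the brighter probe the enrichment difference was -0.72 within scan day 2 and -0.67 within scan day 3, both short of the threshold. Of these groups, day 2 held 1 mouse each of enriched D2, enriched B6 and balanced B6, and day 3 held 1 balanced D2 mouse. With scan day as a block the difference was -0.80 (adjusted p = 0.00127).

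Bmp6 was lower in D2 than in B6 livers averaged over diets (log2 -0.64, SE 0.05, adjusted p = 1.13e-11), as on the second probe (-0.83, SE 0.07, adjusted p = 2.30e-10). In this comparison 24.5% of all probes were lower and 25.5% higher in D2 livers. The averaged difference was -0.56 within scan day 2 and -0.66 within scan day 3. By diet, the brighter probe differed by -0.19 on the deficient diet (adjusted p = 0.0962), -0.45 on the balanced diet (adjusted p = 0.000131) and -1.27 on the enriched diet (adjusted p = 2.45e-12). These comparisons were passed by 27.7%, 29.6% and 34.7% of probes. On the balanced diet the difference was -0.31 within scan day 1, -0.39 within day 2 and -0.53 within day 3. At least 1 strain had a single balanced mouse on each day: both strains on day 1, B6 on day 2 and D2 on day 3. With 75th percentile scaling the deficient-diet value was -0.21 and passed (adjusted p = 0.0474). The strains overlapped on the deficient diet and on no other. Over all probes, the strains did not overlap at 19.9% on the deficient, 18.8% on the balanced and 27.2% on the enriched diet. On the second probe the deficient mice did not overlap (-0.68, adjusted p = 0.000157), so the call on the deficient diet depended on the probe.

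Bmp2 was higher on the enriched than on the deficient diet, as Bmp6 was, over a narrower range. Its normalized signal in D2 livers was 222, 369, 260, 279 and 338 on the deficient diet, 344, 307, 355, 403 and 281 on the balanced diet and 296, 330, 406, 463 and 450 on the enriched diet. In B6 livers it was 246, 258, 300, 304 and 359 on the deficient diet, 327, 287, 395, 337 and 327 on the balanced diet and 443, 430, 476, 401 and 545 on the enriched diet. The D2 diets overlapped throughout, while all 5 enriched B6 mice stood above all balanced and all deficient B6 mice. Separations of these B6 groups were found at 5.58% and 5.63% of probes.

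Averaged over strains, Bmp2 was 1.44-fold higher on the enriched than on the deficient diet (log2 0.53, SE 0.10, adjusted p = 0.000961), a comparison that 8.25% of probes passed. It was 0.41 in D2 livers (adjusted p = 0.134) and 0.65 in B6 livers (adjusted p = 0.00528), and these strain effects differed by -0.24 (95% interval -0.65 to 0.17, adjusted p = 0.833). Against the balanced diet neither step passed on its own: enriched minus balanced was 0.32 (SE 0.10, adjusted p = 0.0968) and deficient minus balanced -0.21 (SE 0.10, adjusted p = 0.240). Within scan days, enriched minus deficient was 0.41 on day 2, short of the threshold with 1 enriched mouse per strain, and 0.63 on day 3 (adjusted p = 0.0235). In B6 livers alone enriched minus balanced was 0.46 (adjusted p = 0.0584), and 0.55 with scan day as a block (adjusted p = 0.000604). The averaged enriched minus balanced value passed without enriched D2 mouse 1 (0.37, adjusted p = 0.0483) and with scan day as a block (0.37, adjusted p = 0.00232).

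The strains did not differ in Bmp2 past the threshold (D2 minus B6 -0.08, 95% interval -0.25 to 0.08, adjusted p = 0.415), but with scan day as a block D2 was lower (-0.19, adjusted p = 0.00589). Bmp2 and Bmp4 were each printed as 10 spots per array, which gives the spread between spots of an array. The spots of an array differed by an SD of 0.09 for Bmp2 and 0.06 for Bmp4 (log2, median over arrays), against 0.23 and 0.26 between mice of a group. The first pair is for single spots and holds no error between arrays. The second pair is for means of 10 spots and holds both that error and differences between mice.

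**Figure D2:**
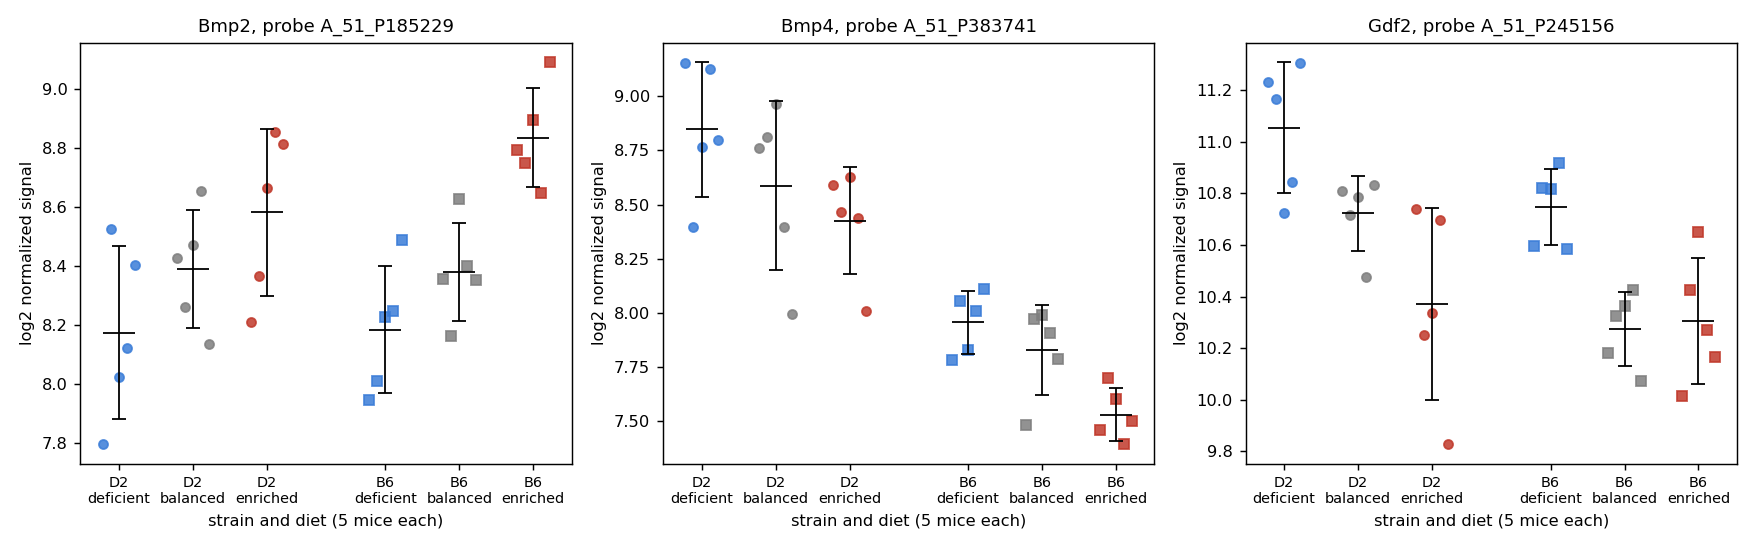
Log2 quantile-normalized signal of Bmp2, Bmp4 and Gdf2 (vertical axes) in every mouse, by strain and diet, with the mean and SD of 5 mice as black bars. Enriched B6 mice stand above the other B6 mice for Bmp2, D2 mice above B6 mice on the same diet for Bmp4, and deficient B6 mice above balanced B6 mice for Gdf2.

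Bmp4 was higher in D2 livers on each diet. Its normalized signal in D2 livers was 570, 337, 436, 560 and 445 on the deficient diet, 435, 450, 500, 337 and 255 on the balanced diet and 386, 353, 395, 347 and 257 on the enriched diet. In B6 livers it was 220, 266, 227, 258 and 276 on the deficient diet, 179, 251, 254, 240 and 221 on the balanced diet and 176, 208, 194, 168 and 181 on the enriched diet. Every D2 mouse stood above every B6 mouse on the same diet, a separation seen at 19.9%, 18.8% and 27.2% of probes on the deficient, balanced and enriched diets.

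Averaged over diets, Bmp4 was 1.80-fold higher in D2 livers (log2 0.85, SE 0.09, adjusted p = 9.60e-09). The difference was 0.89 on the deficient diet (adjusted p = 7.87e-05), 0.76 on the balanced diet (adjusted p = 0.000483) and 0.90 on the enriched diet (adjusted p = 5.50e-05). Within scan day 2 the averaged difference was 1.09 and within scan day 3 it was 0.73; on scan day 3 the balanced diet alone gave 0.11 (adjusted p = 0.701), with 1 D2 mouse and 3 B6 mice. All 4 ligand genes but Bmp2 passed the strain comparison averaged over diets, with Bmp6 lower and Bmp4 and Gdf2 higher in D2 livers, where 24.5% of all probes were lower and 25.5% higher.

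Bmp4 was lower on the enriched than on the deficient diet, the opposite of Bmp6. The averaged enriched minus deficient contrast, added after seeing the data, was -0.42 (SE 0.11, adjusted p = 0.0159), with -0.42 in D2 livers (adjusted p = 0.176) and -0.43 in B6 livers (adjusted p = 0.133). All 5 enriched B6 mice (168 to 208) stood below all 5 deficient B6 mice (220 to 276), a separation seen at 5.63% of probes. With the array slide as a block the averaged value was -0.42 and missed the threshold (adjusted p = 0.0753), and within scan days it was -0.31 and -0.43 on days 2 and 3. Neither enriched minus balanced (-0.23, adjusted p = 0.379) nor deficient minus balanced (0.20, adjusted p = 0.334) passed.

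Gdf2 was higher on the iron-deficient diet. Its normalized signal in D2 livers was 2407, 2301, 1693, 1840 and 2532 on the deficient diet, 1792, 1683, 1764, 1423 and 1823 on the balanced diet and 1708, 1220, 1294, 1660 and 908 on the enriched diet. In B6 livers it was 1550, 1810, 1804, 1933 and 1535 on the deficient diet, 1160, 1281, 1319, 1374 and 1076 on the balanced diet and 1035, 1377, 1607, 1234 and 1149 on the enriched diet. All 5 deficient B6 mice stood above all balanced B6 mice, a separation found at 2.54% of probes, while the deficient and balanced D2 mice overlapped. All 5 balanced D2 mice stood above all balanced B6 mice, as at 18.8% of probes.

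On the deficient against the balanced diet, Gdf2 was 1.32-fold higher averaged over strains (log2 0.40, SE 0.10, adjusted p = 0.0154), with 0.33 in D2 livers (adjusted p = 0.223) and 0.47 in B6 livers (adjusted p = 0.111). With slide as a block it was 0.34 (adjusted p = 0.109), and within scan days 2 and 3 it was 0.45 and 0.29, neither past the threshold. The averaged enriched minus deficient contrast, added after seeing the data, was -0.56 (SE 0.10, adjusted p = 0.000669), with -0.69 in D2 livers (adjusted p = 0.00780) and -0.44 in B6 livers (adjusted p = 0.0806). The D2 value missed the threshold with slide as a block (-0.65, adjusted p = 0.0921). Enriched minus balanced did not pass (-0.16, SE 0.10, adjusted p = 0.563).

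By strain, D2 livers held more Gdf2 averaged over diets (log2 0.27, SE 0.08, adjusted p = 0.00784). This missed the threshold without normalization (0.18, adjusted p = 0.129) and within scan days 2 (0.27, adjusted p = 0.141) and 3 (0.35, adjusted p = 0.0778). The difference was 0.31 on the deficient diet (adjusted p = 0.124), 0.45 on the balanced diet (adjusted p = 0.0197) and 0.06 on the enriched diet (adjusted p = 0.777). The balanced value missed the threshold without balanced B6 mouse 5 (0.40, adjusted p = 0.0578) and with slide as a block (0.38, adjusted p = 0.101).

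**Figure D3:**
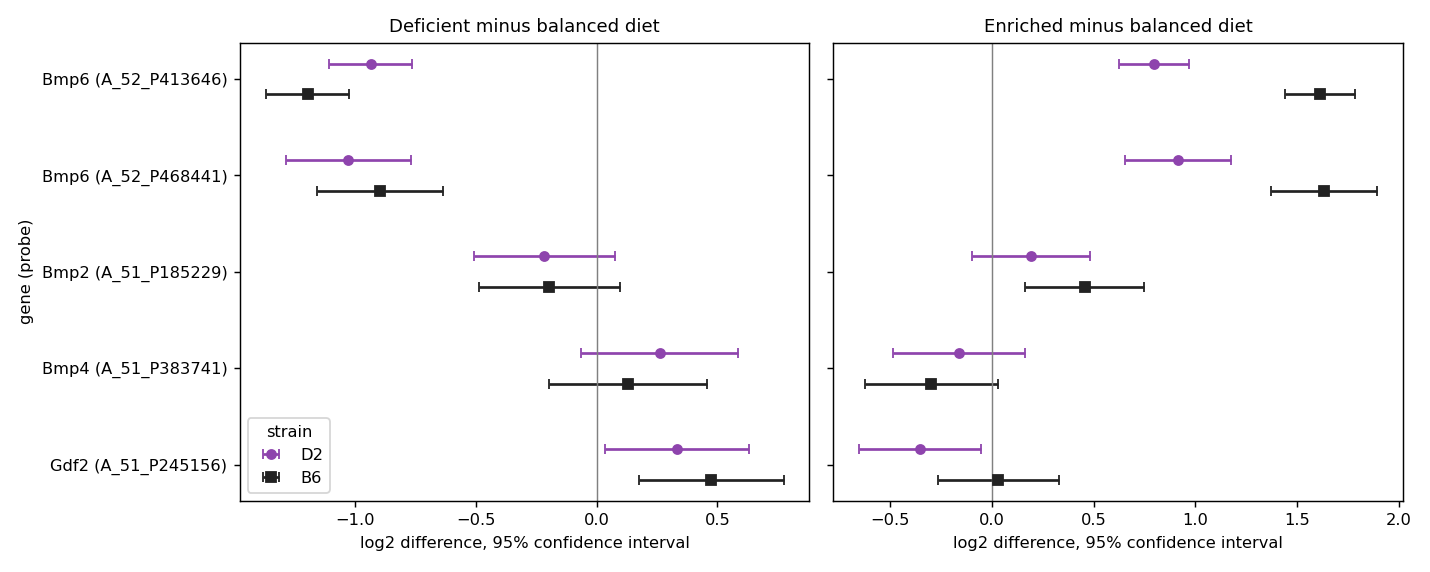
Fitted log2 differences of the 5 ligand probes with 95% confidence intervals (horizontal axes), deficient minus balanced on the left and enriched minus balanced on the right, D2 mice above B6 mice in each pair. The Bmp6 intervals lie below 0 on the left and above 0 on the right, the enrichment response of Bmp6 is smaller in D2 (0.80) than in B6 (1.61), and Gdf2 lies above 0 on the left.

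The genes known to read BMP signalling in hepatocytes followed the diets too. Of 8 such genes, 7 were higher on the enriched than on the balanced diet, where 2.02% of all probes passed, with a median of log2 1.62 against 0.01 over all probes. Hamp did not pass (1.90, adjusted p = 0.108), although every enriched mouse stood above every balanced mouse of its strain. That separation was seen at 1.33% of probes in D2 and 5.58% in B6 livers. The fit shared its spread over all groups, and Hamp in deficient B6 mice ran from log2 4.03 to 9.27. Within strains 2 of the 8 genes passed enriched minus balanced in D2 livers, Id1 and Atoh8, against 0.0867% of probes, and 7 of the 8 in B6 livers, against 5.34%. Id1, Atoh8 and Smad7 stand in the title of the series, so these counts are not independent evidence. In each strain 8 of the 8 had an unadjusted limma p under 0.05. Id1, an inhibitor of differentiation, ran from 1372 to 3673 in signal in enriched D2 livers against 390 to 1103 in balanced D2 livers, and from 6346 to 18510 in enriched B6 livers against 887 to 1601 in balanced B6 livers. Neither pair overlapped. Smad7 (log2 1.72, adjusted p = 7.43e-08), the inhibitory SMAD, and Atoh8 (1.53, adjusted p = 1.40e-07), a transcription factor, rose too, as did Smad6 (0.69, adjusted p = 0.000755).

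Like Bmp6, Smad7 rose less in D2 than in B6 livers, by -1.66 (SE 0.31, adjusted p = 0.00601). For Id1 (-1.10, adjusted p = 0.288) and Atoh8 (-0.88, adjusted p = 0.157) the difference did not pass. On the deficient against the balanced diet, which 7.34% of probes passed, 5 of the 8 fell: Hamp, Hamp2, Id1 (-0.96, adjusted p = 0.00711), Atoh8 (-0.84, adjusted p = 0.000469) and Smad7 (-0.76, adjusted p = 0.00254).

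The Hamp signal ran from 13.9, the floor, to 492 in deficient D2 livers, where 3 of 5 mice were well above background, against 8301 to 87781 in balanced D2 livers. In B6 livers it ran from 16.4 to 619 on the deficient diet, against 38413 to 116014 on the balanced diet. Hamp2 is nearly identical to Hamp in sequence, so their separate levels are uncertain. No deficient mouse overlapped the balanced mice of its strain in Hamp, a separation seen at 6.10% of all probes in D2 livers and 2.54% in B6 livers.

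**Figure D4:**
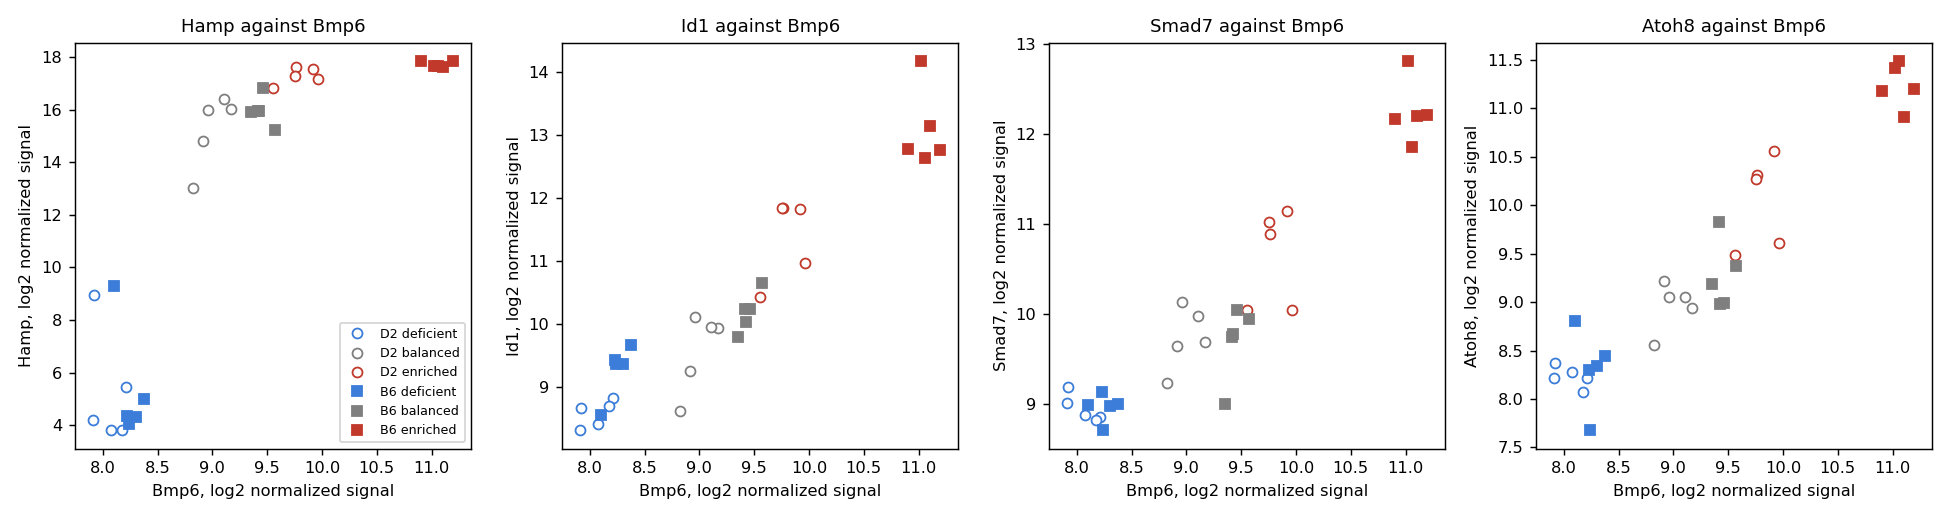
Log2 quantile-normalized signal of Hamp, Id1, Smad7 and Atoh8 (vertical axes) against that of the brighter Bmp6 probe (horizontal axes), 1 point per mouse; open circles are D2, filled squares B6, and colours the diets. The 30 mice lie in clusters by group, with deficient mice at the lower left and enriched B6 mice at the upper right in each panel.

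Within groups, no relation between Bmp6 and its readout genes passed the threshold. Over the deviations of 30 mice from their group means, the correlation of Bmp6 with Id1 was r = 0.492 (rho = 0.358, permutation p = 0.0182 and 0.0937, two-sided; adjusted p = 0.218 for r over the 12 relations tested). It was 0.938 in 8 mice of scan day 2, 0.0917 in 13 mice of scan day 3 and 0.343 without the 2 mice farthest from the median of Bmp6. For Hamp r was -0.109, for Hamp2 -0.0606, for Smad7 0.176, for Atoh8 0.0617 and for Smad6 0.121. Among the ligands, Bmp6 with Bmp2 gave 0.320, with 0.211 on scan day 2, 0.556 on day 3 and 0.495 without the 2 mice. Bmp4 with Gdf2 gave 0.292, with -0.727 on day 2, 0.788 on day 3 and 0.534 without the 2 mice farthest from the median of Bmp4. After adjustment 0 of the 12 relations passed, with 1 at an unadjusted p under 0.05. The 2 Bmp6 probes correlated at 0.660 within groups.

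Of 17 other BMP and GDF ligands 12 were tested, and 0 passed in limma in any of the 3 averaged diet comparisons. Enriched minus balanced, deficient minus balanced and enriched minus deficient were passed by 2.02%, 7.34% and 8.25% of all probes. Among the 12 ligands, 1 had an unadjusted p under 0.05 for enriched minus balanced, 1 for deficient minus balanced and 2 for enriched minus deficient. Their median enriched minus deficient difference was log2 0.08, against 0.00 over all probes. In D2 livers alone, where 4.16% of probes passed deficient minus balanced, 1 of the 12 did. By strain 3 were higher and 1 was lower in D2 livers, against 25.5% and 24.5% of all probes: Bmp7 (0.98, adjusted p = 3.29e-09), a ligand close to BMP6, Gdf1, Bmp1, a protease despite its name, and Gdf10 (-0.54).

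Among 9 activin, inhibin and TGF-beta ligands, Tgfb1, the cytokine that names the superfamily, was higher on the deficient than on the balanced diet (0.40, adjusted p = 0.00605), as Gdf2 was. Inhbc, an activin chain made by hepatocytes, was lower on the enriched than on the balanced diet (-0.50, adjusted p = 0.0390). Enriched minus deficient was negative and passed for 4 of the 9, Inhbb, Inhbe, Inhbc and Tgfb1, in a comparison that 8.25% of all probes passed.

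Of 17 tested BMP receptors and co-receptors, 1 rose on the enriched against the balanced diet, Bambi, a decoy receptor that blocks BMP signalling (0.48, adjusted p = 0.00685), and 0 passed in limma between the deficient and the balanced diet averaged over strains, where 4 had an unadjusted p under 0.05. Bambi was at -0.06 in D2 livers and rose by 1.01 in B6 livers (adjusted p = 3.61e-05), a difference of -1.07 (adjusted p = 0.00591), of the same sign as that of Bmp6. Of 6 SMAD genes, Smad9, a SMAD activated by BMP receptors, rose on the enriched (0.47, adjusted p = 0.0439) and fell on the deficient diet (-0.43, adjusted p = 0.0329), both against balanced. Enriched minus deficient, averaged over strains, passed for 4 of the 6, against 8.25% of all probes. Of 18 tested BMP inhibitors and binding proteins, 1 was higher and 1 lower on the enriched than on the balanced diet. The higher one was Fst (follistatin, 0.95, adjusted p = 0.00323). For all lists of this paragraph, 2.02% of all probes passed enriched minus balanced and 7.34% passed deficient minus balanced, averaged over strains.

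Of 4 iron sensing partners, Tfrc, the transferrin receptor, fell on the enriched (-1.48) and rose on the deficient diet (2.51) against balanced, opposite to Bmp6. Hfe, the hemochromatosis protein that binds it, was higher on the enriched than on the balanced diet (0.23, adjusted p = 0.0196) and lower in D2 than in B6 livers (-0.77, adjusted p = 2.36e-14). All 4 partners passed that strain comparison, where 24.5% of all probes were lower and 25.5% higher in D2 livers. The enriched and deficient comparisons against balanced were passed by 2.02% and 7.34% of all probes.

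Markers of the cells that make these ligands moved with some of the results. Of 18 sinusoidal endothelial markers, all detected, 14 were lower in D2 livers than in B6 livers and 1 was higher, against 24.5% and 25.5% of all probes, led by Lyve1 (-2.24), the hyaluronan receptor, with a median of -0.27 against -0.01 over all probes. Their summed signal ran from 51708 to 59194 in deficient, 51847 to 54921 in balanced and 53852 to 60360 in enriched D2 livers, against 60657 to 70139, 57446 to 72718 and 71984 to 78111 in B6 livers. Bmp6 was lower in D2 livers as well, and the part of these markers in that result was not tested. On the enriched against the balanced diet 2 of the 18 rose, Mrc1 (0.27) and Stab1 (0.27), and on the deficient against the balanced diet 7 rose and 1 fell, while Bmp6 fell; 2.02% and 7.34% of all probes passed these comparisons.

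Of 12 stellate cell markers, the vitamin A storing cells beside the sinusoid, 4 rose on the deficient against the balanced diet, as Gdf2 did, in a comparison that 7.34% of all probes passed: Rgs5 (1.12), Colec11 (0.48), Reln (0.51) and Dcn (0.48). Their median was log2 0.04 against 0.01 over all probes. The summed signal of the list ran from 44191 to 54349 in deficient D2 livers against 23602 to 49697 in balanced D2 livers, and from 43352 to 52695 in deficient B6 livers against 32064 to 42607 in balanced B6 livers. The part of these markers in the Gdf2 result was not tested. All 11 Kupffer cell markers were lower in D2 than in B6 livers (median -0.55), as were 6 of 11 hepatocyte markers, with 2 higher. Of all probes 24.5% were lower and 25.5% higher in that comparison.

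By the correlation of the 30 log2 levels, which hold the group differences, the genes with a pattern most like Bmp6 were Apoc3 (r = 0.958), Atoh8 (0.950), Id1 (0.946), Plbd2 (0.942), Smad7 (0.938), Sox17 (0.915), Akr1b3, Tmem120b, Cdhr5 and Gucy2c (0.880). Sox17, an endothelial transcription factor, changed by log2 0.31 on the enriched (adjusted p = 0.00585) and -0.40 on the deficient diet (adjusted p = 0.000251) against balanced. Apoc3, an apolipoprotein of hepatocytes, changed by 0.36 and -0.25 in these comparisons. The group differences took part in choosing these genes, so such changes are not separate evidence. The most opposed were Slc11a2 (-0.952), a ferrous iron transporter, Ube2e2, Znrf3, Lamb3 and Tfrc (-0.850).

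Bmp2 was most like Lztr1 (0.794), Kitl, Man2b2 and Thoc3, with the second Bmp6 probe in the fifth place (0.760). Bmp4 was most like Zfyve26 (0.913), Enpp4 (0.911), Zfp825, Acat1 and F3, all 5 of them higher in D2 than in B6 livers. Among the genes most like Gdf2 were Ntn1 (0.890), Colec11 (0.882), Pdgfra (0.840) and Tgfbi (0.836). All 4 of these were higher on the deficient than on the balanced diet, Tgfbi by 0.68 (adjusted p = 1.01e-05) and Pdgfra, a receptor of stellate cells and fibroblasts, by 0.64 (adjusted p = 0.00130). The genes of this paragraph were chosen by the same correlation, which holds the group differences. Their shared diet and strain differences follow from that choice and are not separate evidence.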

How the data were processed

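Per the file headers, the deposited array files hold fluorescence intensity on a linear scale from Agilent Feature Extraction 9.1.3.1 (the labels name 9.5.1), as a background-subtracted processed signal not normalized between arrays. The value table deposited by the authors holds the same intensity. Here control spots and spots marked as outliers were left out, spots of a probe were averaged, and signals were quantile normalized as the series' text states, raised to a floor of 13.9 and log2 transformed. Probes were kept when well above background on at least 3 D2 and 3 B6 arrays with at least 3 values in every group. On each array 62.5% to 78.5% of probes were well above background; the number of arrays limits the precision.

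limma 3.58.1 (R 4.3.3) fitted 6 group means to all 30 arrays, probe by probe, in place of R/maanova. Adjusted p-values are Benjamini-Hochberg over 29986 probes, and calls are at 0.05. Where a gene has several probes the brightest stands for it. Promoter sequences and gene names came from RefSeq (GRCm38.p6). The fit was tested on simulated data. Permutations within groups used 100000 resamples (Python 3.11.15, scipy 1.17.1).

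Named genes were all 4 ligands, 6 readout genes, up to 4 called members of each list with the smallest adjusted p, and the genes most like each ligand; Alb, Ttr and Erfe were named beside this rule, and some genes that it selects are not reported here. The members and lists were chosen with earlier results of these data known, and the averaged enriched minus deficient contrast and the values within slides were added after seeing the data. Arrays came from 10 slides and 3 scan days, and strains and diets were unevenly spread over the days. Day 1 held 2 enriched D2 mice, 1 mouse each of balanced D2, deficient D2 and balanced B6, and 0 enriched or deficient B6 mice. Groups of 1 mouse were balanced B6, enriched B6 and enriched D2 on day 2, and balanced D2 on day 3. Batches, other scalings and filters were tried as alternatives. The replicate numbers follow accession order and pair no mice.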

Additional observations from a re-analysis of the deposited data

Results flagged for a closer look

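Results are listed here where a strain difference in the diet effect itself passed its test. The Bmp6 response to the enriched against the balanced diet, on probe A_52_P413646, differed between D2 and B6 livers by log2 -0.81 (limma adjusted p = 0.000621). Its response from the deficient to the enriched diet differed by log2 -1.08 (adjusted p = 1.03e-05). Within scan days 2 and 3, where some groups held 1 mouse, neither difference passed (-0.72 and -0.67 for enriched minus balanced, -0.93 and -0.95 for enriched minus deficient). Of the 30 sets of 5 mice searched for a mouse far from its group, 0 held one.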

How the results depend on the processing

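The 24 main ligand results were 4 genes in 6 averaged or difference contrasts. Of these contrasts, averaged enriched minus deficient was added after seeing the data. Of 338 alternatives to the 24 results, 304 kept direction and side of the threshold and 10 changed sign. Of 720 fits without 1 mouse, 712 kept both and 7 changed sign. A value past the threshold changed sign in 0. Leaving out 1 mouse moved Bmp2 enriched minus balanced between 0.29 and 0.37, past the threshold without enriched D2 mouse 1. It also passed with 75th percentile scaling (0.35), a slide block (0.33) and a scan day block (0.37). Bmp2 D2 minus B6 passed without normalization (-0.22), with a block for slide (-0.22) or for scan day (-0.19), and on scan day 3 (-0.27). With slide as a block, Gdf2 deficient minus balanced (0.34) and Bmp4 enriched minus deficient (-0.42) lost the call, and without normalization Gdf2 D2 minus B6 did (0.18). Without normalization the median of all probes shifted by -0.18 for D2 minus B6, -0.20 for the strain difference of the enrichment effect and -0.11 for enriched minus deficient.

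Single scan days hold fewer mice, with 1 mouse in some groups on each day, so a lost call there is weak evidence of a different effect. On day 2 the call was lost for Bmp6 deficient minus balanced (-0.95) and its enrichment difference (-0.72), for Gdf2 deficient minus balanced (0.45), D2 minus B6 (0.27) and enriched minus deficient (-0.54), and for Bmp2 (0.41) and Bmp4 (-0.31) enriched minus deficient. On day 3 it was lost for the Bmp6 enrichment difference (-0.67), for Gdf2 (0.29, 0.35 and -0.46 in the same order) and for Bmp4 enriched minus deficient (-0.43), while Bmp4 deficient minus balanced passed (0.50). On the second Bmp6 probe the enrichment difference was -0.71. Slides held 1 to 4 arrays, so values within a slide have no test. Within slides that held both diets of a strain, Bmp6 enriched minus balanced ran from 1.01 to 1.67 (5 values). Of these, the only D2 value was 1.01. Bmp6 deficient minus balanced ran from -1.36 to -0.65 (4 values), and the only B6 value was -1.36. In the same 2 comparisons Bmp2 ran from 0.25 to 0.93 and from -0.45 to -0.07. Values on both sides of 0 were found for Bmp4 (-0.52 to 0.22 and -0.17 to 0.77) and Gdf2 (-0.38 to 0.25 and -0.11 to 0.52). No paired analysis was possible because the replicate numbers follow accession order and every mouse belongs to 1 group. The cause of these changes was not tested.

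Values that changed sign all missed the threshold before and after, with adjusted p of 0.123 or more. The strain difference of the deficiency effect became -0.13 on the second Bmp6 probe. For Bmp2 it became 0.0095 with 75th percentile scaling, 0.10 with a slide block, 0.015 with a scan day block and 0.10 on day 3, for Bmp4 -0.39 on day 2 and for Gdf2 0.012 with a slide block. Bmp4 enriched minus balanced became 0.067 on day 3 (0.53 in D2 livers) and 0.22 in B6 livers on day 2, and deficient minus balanced in D2 livers -0.0027 on day 1. Its strain difference of the enrichment effect became -0.077 without normalization and -0.44 on day 2. That of enriched minus deficient became -0.13 without normalization, -0.020 with percentile scaling, -0.00027 with cyclic loess, -0.023 with normexp, -0.080 with a slide block, -0.051 on day 2 and -0.0031 on day 3. Bmp2 D2 minus B6 became 0.024 on the deficient diet with cyclic loess, and on the balanced diet -0.046 without normalization, -0.035 with percentile scaling, -0.11 with a slide block, -0.077 with a scan day block and -0.17 on day 3. Gdf2 enriched minus balanced in B6 livers became -0.0014 with a slide block, and its D2 minus B6 value on the enriched diet -0.14 without normalization and -0.090 on day 2. Leaving out 1 mouse moved the deficiency difference of Bmp2 over -0.11 to 0.074 and of Bmp4 over -0.017 to 0.24, the Bmp4 enrichment difference over -0.013 to 0.24 and enriched minus deficient difference over -0.11 to 0.11. It moved Bmp2 D2 minus B6 over -0.10 to 0.085 on the deficient and -0.055 to 0.074 on the balanced diet, Gdf2 D2 minus B6 on the enriched diet over -0.027 to 0.20 and Gdf2 enriched minus balanced in B6 livers over -0.054 to 0.11.

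The within-group correlations changed sign as follows. On day 2 r was -0.353 for Bmp6 with Bmp4, 0.203 for Bmp2 with Gdf2, -0.727 for Bmp4 with Gdf2, 0.882 for Bmp6 with Hamp and 0.898 with Hamp2. On day 3 r of Bmp6 was -0.0786 with Gdf2, -0.407 with Smad7, -0.380 with Atoh8 and -0.0330 with Smad6. Without the 2 mice farthest from the median of Bmp6, r of Bmp6 was -0.142 with Bmp4, -0.0267 with Gdf2, -0.127 with Atoh8 and -0.00339 with Smad6. Without the 2 mice farthest from the median of Bmp2, r of Bmp2 with Gdf2 was 0.115. Over deviations within group and scan day r of Bmp6 was 0.0499 with Hamp, 0.334 with Hamp2 and -0.00815 with Atoh8, and with percentile scaling 0.0400 with Hamp and 0.161 with Hamp2.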

Other observations

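Averaged over strains, of 4 ligand processing proteases 0 passed in limma on either diet against balanced, with 2 at an unadjusted p under 0.05 on the enriched and 0 on the deficient diet, while Pcsk6, a proprotein convertase, was higher on the enriched than on the deficient diet (log2 0.27, adjusted p = 0.0133) and in D2 than in B6 livers (0.46). In B6 livers alone it was also higher on the enriched than on the balanced diet (0.40, adjusted p = 0.0132). Of 6 cholangiocyte markers 0 passed in limma on either diet against balanced averaged over strains, with 0 at an unadjusted p under 0.05 on the enriched and 2 on the deficient diet. Averaged over diets, 3 of the 6 passed between the strains, Spp1, Krt19 and Epcam, all lower in D2 livers. Of all probes 24.5% were lower and 25.5% higher in that strain comparison. In B6 livers alone Krt19 was higher on the enriched than on the balanced diet (0.72, adjusted p = 0.00960). Of 10 lymphocyte markers 0 passed in limma in the averaged diet comparisons, with 1 at an unadjusted p under 0.05 for enriched minus balanced, 0 for deficient minus balanced and 1 for enriched minus deficient. These 3 averaged comparisons were passed by 2.02%, 7.34% and 8.25% of all probes. Of 3 tested blood erythroid genes, Alas2, the erythroid enzyme of heme synthesis, was lower on both the enriched (-0.52) and the deficient diet (-0.62) than on the balanced diet.

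Htra1, a secreted protease that binds TGF-beta ligands, was lower on the deficient than on the balanced diet (-0.64, adjusted p = 0.0159). Erfe, the erythroid hormone that traps BMP6, was well above background on 1 of 30 arrays and was not tested.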
